A study of Sus scrofa with 5 samples.

Results

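The imprinted genes MEST, IGF2, DLK1, PLAGL1, INPP5F, IMPACT, MEG3, IGF2R, CDKN1C and PHLDA2 were followed in pig embryonic stem cells and in blastoids made from such cells. They are 10 of 30029 genes in the blastoid count files, and they were selected on their measured CPM in gated blastoid cells and their FPKM in pESCs, so that their levels are given here as a description with no test. The study derived porcine embryonic stem cells (pESCs) from parthenogenetic blastocysts, in which an activated oocyte develops without sperm and every chromosome copy is maternal, and cultured them in 4FIXY medium on mouse feeder cells. From pESCs it assembled blastoids, cell aggregates modelled on the blastocyst, in iBlastoid medium, collected on day 6. The groups are 2 single-cell libraries of blastoids and 3 bulk RNA-seq libraries of pESCs, with no other genotype or treatment and no matched biparental group named in the labels. The pESC columns are called IVFP25, PA_4P7 and PAP25. They match no single sample label, and the labels do not state which pESC line gave the blastoids, so no pESC library was paired with a blastoid library. IVF in a column name commonly stands for in vitro fertilization, but the labels do not say so here.

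Imprinted genes are transcribed mainly from the copy inherited from 1 parent, and the parental copies are told apart by DNA methylation set in the germ cells at control regions. Cells of parthenogenetic origin carry only maternal copies, so genes of the paternally expressed class are classically low in them and genes of the maternally expressed class are not. Both classes are known for opposing roles in fetal and placental growth, and which genes are imprinted differs between species and tissues. Of the genes followed, 6 (MEST, IGF2, DLK1, PLAGL1, INPP5F and IMPACT) belong to the paternally expressed class and 4 (MEG3, IGF2R, CDKN1C and PHLDA2) to the maternally expressed class where they are imprinted. Neither data set separates alleles, so no value here says which parental copy was transcribed.

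Expression in the blastoids was counted in unique molecular identifiers (UMIs), 1 per captured RNA molecule, from 7369 cells of library 1 and 8175 of library 2, with medians of 29728 and 27588 UMIs per cell. Only 9 cell barcodes were shared by the libraries. Cells were gated on 1 gene each, POU5F1, CRABP1, GABRP, SCRG1 or COL3A1, and the gates are named by that gene. The gates held 558 and 725, 240 and 371, 804 and 878, 36 and 28, and 570 and 465 cells in libraries 1 and 2, in that order, 4675 of 15544 cells in all. UMIs were summed per gate and library, which gave 10 sums, and are stated as CPM, UMIs scaled to the same library total. The CPM in empty droplets (barcodes with 10 to 100 UMIs) is given beside them. It is scaled to the total of those droplets, 1639823 UMIs in 118122 droplets of library 1 and 2344239 in 165131 of library 2. It thus describes the make-up of RNA in empty droplets and not its amount in a cell. A gate at or below this level can still hold RNA of its own cells. Intervals are exact 95% Poisson intervals of the count and cover counting error only. Means are given with the SD over the 2 libraries, which measures only the spread between these samples. A lower summed level can mean fewer cells with the RNA or less RNA per cell, and in the bulk libraries these cannot be told apart.

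Bases just before a transcript start are shown for the genes whose transcripts the results below turn on, from the RefSeq annotation of Sscrofa11.1, the build of the files. The 2 MEST starts are shown because PA_4P7 and IVFP25 put their FPKM on different ones, and MEG3 because its gate means differed by one of the 2 widest ratios of the 10 genes. CG dinucleotides, the bases that carry DNA methylation, are in capitals, and each run is the 250 bases upstream of the start, 5′ to 3′ on the gene's strand.
MEST upstream start, transcript XM_005673160.3, minus strand, chr18:18351264-18351513: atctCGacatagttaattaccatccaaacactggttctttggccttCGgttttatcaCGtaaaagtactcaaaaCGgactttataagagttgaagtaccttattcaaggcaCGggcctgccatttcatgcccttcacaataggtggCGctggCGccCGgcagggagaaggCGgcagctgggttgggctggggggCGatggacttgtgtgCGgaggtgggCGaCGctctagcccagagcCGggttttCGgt
MEST downstream start, transcript XM_005673159.3, minus strand, chr18:18345893-18346142: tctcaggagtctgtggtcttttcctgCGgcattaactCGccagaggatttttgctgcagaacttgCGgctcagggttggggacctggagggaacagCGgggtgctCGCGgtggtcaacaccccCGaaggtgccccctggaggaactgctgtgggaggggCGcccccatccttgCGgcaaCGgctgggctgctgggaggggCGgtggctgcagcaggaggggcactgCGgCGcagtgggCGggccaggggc
MEG3, transcript NR_021488.1, plus strand, chr7:121656003-121656252: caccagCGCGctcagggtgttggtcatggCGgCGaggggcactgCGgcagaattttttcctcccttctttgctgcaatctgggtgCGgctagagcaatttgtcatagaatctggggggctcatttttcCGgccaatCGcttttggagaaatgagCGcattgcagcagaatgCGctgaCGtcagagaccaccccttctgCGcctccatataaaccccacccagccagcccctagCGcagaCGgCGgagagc
The windows hold 15, 14 and 15 CG dinucleotides, against a median of 9 and an upper quartile of 20 in the windows of 27286 genes. The letters TGCCGC, a core recognised by the imprint-protecting factor ZFP57 when methylated, were searched on both strands. They occurred 1, 2 and 1 times, and at least once in 12.9% of all gene windows. A match is a description of the letters and not of binding.

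In pESCs most of the 10 genes were measurable, and the label of an active set held for some of them only. Values are FPKM, fragments scaled by transcript length and library size, added up over the transcripts of a gene. IGF2R, the receptor that carries IGF2 to lysosomes, was at 40.1 in IVFP25, 49.9 in PA_4P7 and 39.0 in PAP25. CDKN1C, the cyclin-dependent kinase inhibitor p57, was at 24.3, 25.5 and 27.1. PHLDA2, a pleckstrin homology protein that restrains placental growth, was at 2.74, 2.96 and 2.45. These 3 maternally expressed genes stayed within a narrow range, with means of 43.0 ± 6.00, 25.7 ± 1.39 and 2.71 ± 0.255 (SD, n = 3).

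MEG3, a long noncoding RNA of the maternally expressed class, varied more. It stood at 2.61, 13.97 and 6.60 in the same order of libraries, a mean of 7.72 ± 5.76 (SD, n = 3), lowest in IVFP25. Of the paternally expressed class, IMPACT, an inhibitor of the kinase GCN2, was at 7.26, 9.75 and 8.12, and INPP5F, a phosphoinositide phosphatase, at 5.47, 6.86 and 6.55. Their means were 8.38 ± 1.26 and 6.29 ± 0.730 (SD, n = 3). The imprinted INPP5F transcript of mouse and human begins inside the gene, whereas the 4 annotated pig transcripts all start between positions 129577594 and 129577613 of chromosome 14. RNA from an internal start without annotation would be counted on the same exons, so these values cannot tell the forms apart. IMPACT has 2 annotated transcripts that start 3 bases apart on chromosome 6.

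The other 4 paternally expressed genes were low or uneven. MEST, an alpha/beta hydrolase fold protein, was at 4.70, 6.26 and 0.692 FPKM. DLK1, a transmembrane protein with EGF-like repeats that acts in the Notch pathway, was at 2.43, 0.0572 and 0.508. PLAGL1, a zinc finger transcription factor, was at 2.93, 0.735 and 0.348. DLK1 and PLAGL1 were thus highest in IVFP25, while MEST was high in IVFP25 and PA_4P7 and low in PAP25. IGF2, the fetal growth factor, was at 0.254, 0.240 and 1.41, and only PAP25 exceeded 1 FPKM. With 18351 to 18680 genes above 0 in a library, IGF2 ranked at the 25.8, 23.8 and 40.0 percentile and IGF2R at the 90.9, 92.8 and 91.2 percentile. Among genes with at least 1 FPKM alone, the mean percentile of IGF2R was 86.7, and IGF2, which reached that level in PAP25 only, stood there at 5.60. Their SDs were large beside their means, 3.88 ± 2.87 for MEST, 0.634 ± 0.670 for IGF2, 0.999 ± 1.26 for DLK1 and 1.34 ± 1.40 for PLAGL1 (SD, n = 3). The number of reads behind an FPKM is unknown, so no interval was set on it.

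The transcripts behind the MEST value differed between libraries. MEST lies on the minus strand of chromosome 18 (18319126 to 18358655) and has 8 annotated transcripts. In PA_4P7, 4.04 of its 6.26 FPKM were on the transcript from the upstream start printed above (position 18351263), which stood at 0.592 in IVFP25 and 0 in PAP25. In IVFP25, 2.61 of 4.70 FPKM were on the transcript from the downstream start (position 18345892), which was listed at 0 in both other libraries. In PAP25, 0.605 of 0.692 FPKM were on XM_005673163.3, which starts 49 bases further on and was at 1.11 and 1.01 in IVFP25 and PA_4P7. That transcript is 13839 exon bases long, of which 619 are shared with exons of COPG2, the neighbouring gene on the other strand, and COPG2 is itself expressed. The assignment of fragments to transcripts is an estimate, and its part in these shifts was not tested.

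PLAGL1, on the plus strand of chromosome 1 (21299830 to 21371070), has 29 annotated transcripts, of which 16 were above 0 in at least 1 library. Starts of 14 of the transcripts lie within 21303988 to 21304002. The FPKM summed over this cluster was 2.17, 0.572 and 0.0287 in the 3 libraries in the same order, so it held most of the PLAGL1 signal in IVFP25 and PA_4P7 and little of it in PAP25. The transcript from the start at 21300753 was at 0.250, 0.138 and 0.113. IGF2, on the minus strand of chromosome 2 (1469183 to 1496417), had 1.36 of its 1.41 FPKM in PAP25 on 1 of 17 transcripts, XM_021080576.1, which was at 0.193 in IVFP25 and 0 in PA_4P7.

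**Figure D1:**
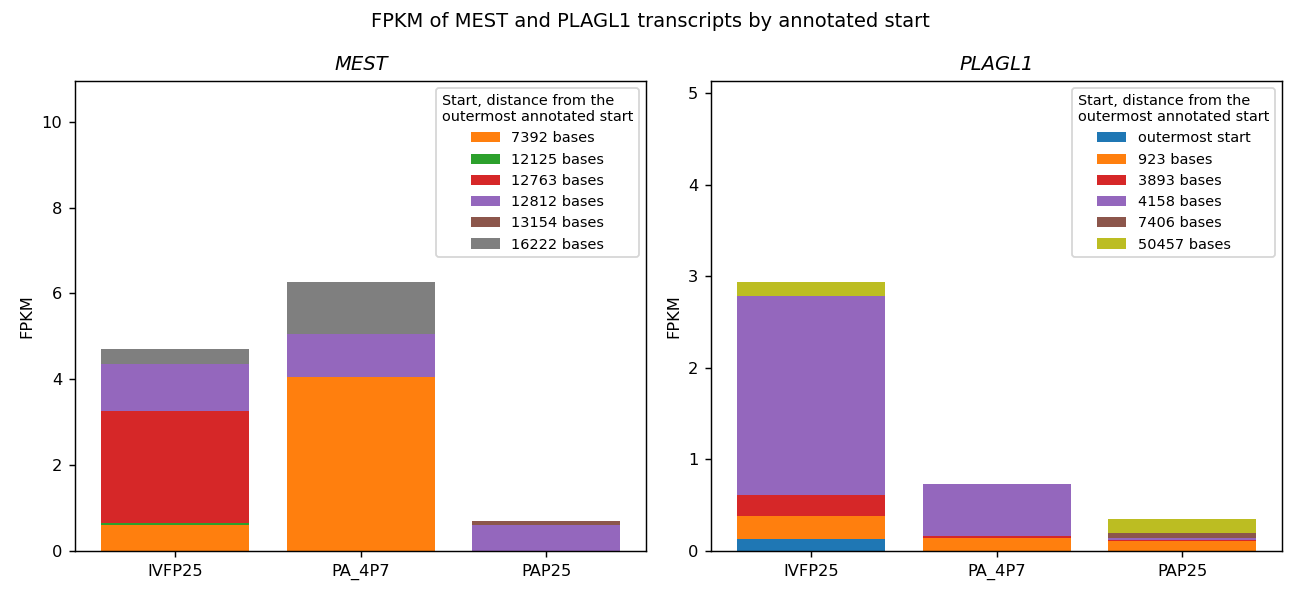
Stacked bars give the FPKM of MEST (left) and PLAGL1 (right) in each pESC library, coloured by the annotated start of the transcript, named by its distance in bases from the outermost start. MEST in PA_4P7 is mostly from the start at 7392 bases, and in IVFP25 mostly from the start at 12763 bases, while PLAGL1 in IVFP25 is mostly from the start at 4158 bases.

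Other imprinted genes place these values. In the file, 19 of 27 other paternally expressed genes and 25 of 28 other maternally expressed genes had a row. Of the 11 other paternally expressed genes with at least 1 FPKM in IVFP25, 8 were at least 10 times as high in IVFP25 as in both other libraries, against 24 of 11520 genes (0.208%). None of the 5 listed paternally expressed genes at or above 1 FPKM in IVFP25, none of the 4 listed maternally expressed genes and none of 13 other maternally expressed genes did so. The members were selected on these same FPKM, so their count is a description and no comparison with the other list. That list lacks the members, so its 8 of 11 is not the share of the whole class. The 10-fold limit was chosen after the values were seen. NNAT, a small neuronal membrane proteolipid, was at 236.8, 2.04 and 1.99 FPKM in the order of libraries above. SNRPN, a spliceosome protein, was at 100.4, 0 and 0.00688, and NDN, the growth suppressor necdin, at 47.7, 0 and 0. PEG3 was at 5.60, PEG10 at 5.47 and SGCE at 1.26 in IVFP25 and listed at 0 in both others. NAP1L5 was at 7.69, 0.178 and 0.129, and MAGEL2 at 7.23, 0 and 0.253. In PA_4P7 and PAP25, where most of these genes were near 0, the members INPP5F and IMPACT had FPKM close to those in IVFP25. The MEST total was 6.26 in PA_4P7 beside 4.70 in IVFP25, but from different transcripts. The MEST transcript with most FPKM in IVFP25, at 2.61, was listed at 0 in PA_4P7 and PAP25. DLK1 was over 10 times as high in IVFP25 as in PA_4P7 but not as in PAP25, and PLAGL1 reached that ratio against neither. Among the other maternally expressed genes the highest means were those of NAP1L4, 127 ± 6.62, CD81, 110.3 ± 10.4, COPG2, 36.9 ± 8.42, and TSSC4, 24.1 ± 3.76 FPKM (SD, n = 3), and GRB10 was at 12.2, 16.2 and 15.1.

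**Figure D2:**
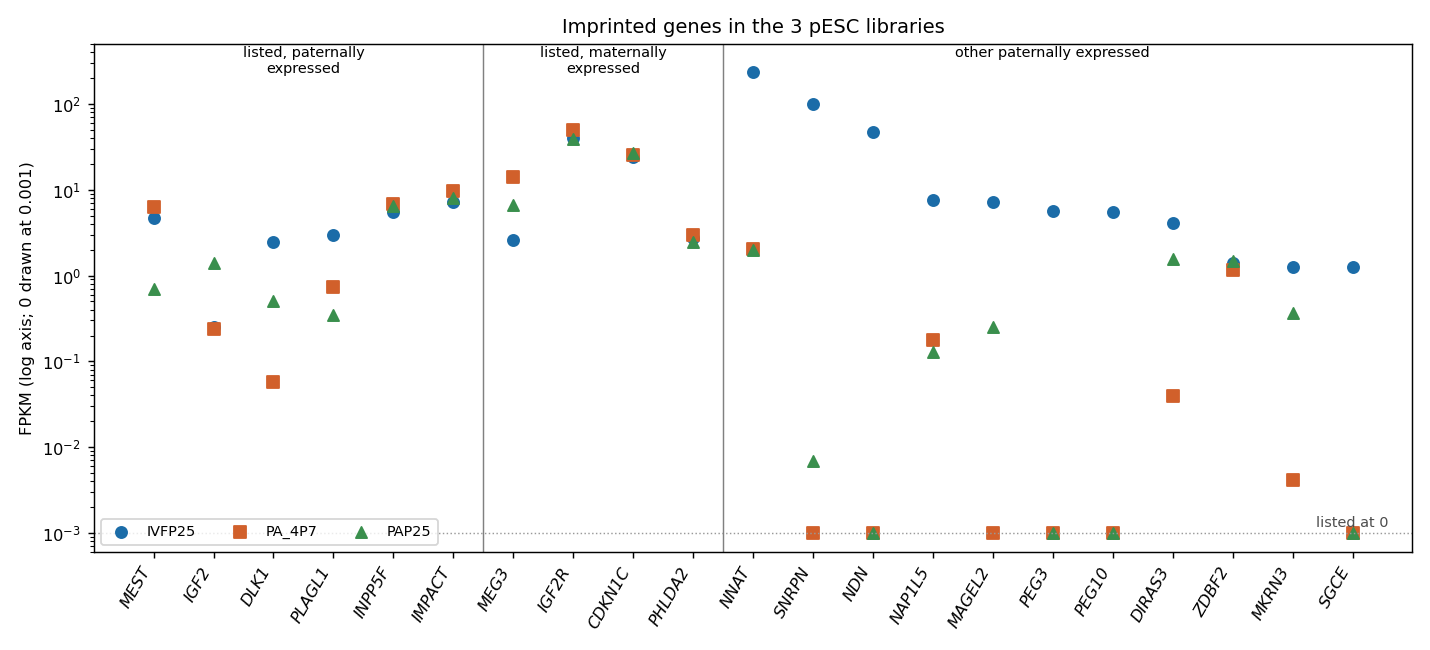
Points give the FPKM of the 10 genes and of the 11 other paternally expressed genes with at least 1 FPKM in IVFP25, in the 3 pESC libraries, on a log axis with 0 drawn at 0.001. INPP5F, IMPACT, IGF2R, CDKN1C and PHLDA2 overlap between libraries, while SNRPN, NDN, PEG3, PEG10 and SGCE are above 1 FPKM in IVFP25 and at or near 0 in the others.

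Markers of fibroblasts, the cell type of the mouse feeder layer, ranged widely in the pESC libraries. Reads were mapped to the pig genome, so feeder RNA would count here only where mouse reads map to pig transcripts. The share of such reads is unknown, and these FPKM do not measure the feeder content. Of 13 listed markers 12 were in the file, and 11 without VIM summed to 20.9, 27.3 and 24.3 FPKM. COL6A2 held much of that sum, at 9.72, 15.7 and 11.5 FPKM, above INPP5F and IMPACT, and COL1A1 was at 3.60 to 4.47 and THY1 at 2.41 to 3.26. COL3A1 was at 0.0159, 0 and 0.0182 FPKM, DCN at 0.0556, 0 and 0.215, and POSTN was listed at 0 in all 3, while VIM, which pluripotent cells also use, was at 40.0, 60.6 and 28.6. Of proteins that keep imprints, TRIM28 was at 352 to 384 FPKM and DNMT1 at 53.3 to 58.7, ZNF445 at 9.43 to 11.9, and ZFP57 was at 0.313, 0.996 and 0.167. Their part in the levels above was not tested.

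In the blastoids the gate on 1 gene set apart cells with further genes of the same kind (DNMT3B and UTF1 with POU5F1, PAX6 and SOX3 with CRABP1, TAC3 and GATA3 with GABRP, SOX10 and FOXD3 with SCRG1, COL1A1 and DCN with COL3A1), while SOX2 and ZIC2 were high in both the POU5F1 and CRABP1 gates. Other genes checked were less particular to their gate. OTX2, checked for CRABP1, was at 59.1 and 61.8 CPM there and at 65.6 and 74.5 in the POU5F1 gate. GATA2, checked for GABRP, was at 50.5 and 52.8 CPM there and at 64.8 and 48.8 in the POU5F1 gate. HAND1, checked for COL3A1, was at 690 and 647 CPM there and at 354 and 290 in the GABRP gate. All 10 genes passed the filter on low counts over the 10 sums, and 16939 genes did so in all. Both sums above all others were found for 3 members in the CRABP1 gate, where this held for 11% of all genes, for 2 members in the GABRP gate (12.4%), for 1 in the SCRG1 gate (10.2%), for 1 in the COL3A1 gate (8.37%) and for 0 in the POU5F1 gate (12.5%). Both sums below all others were found for 4 members in the GABRP gate, against 25.8% of all genes, for 2 in the POU5F1 gate (7.31%), and for 0 in the CRABP1 (1.38%), SCRG1 (12.1%) and COL3A1 (5.62%) gates. These counts follow from the values that chose the list and are given as a description.

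**Figure D3:**
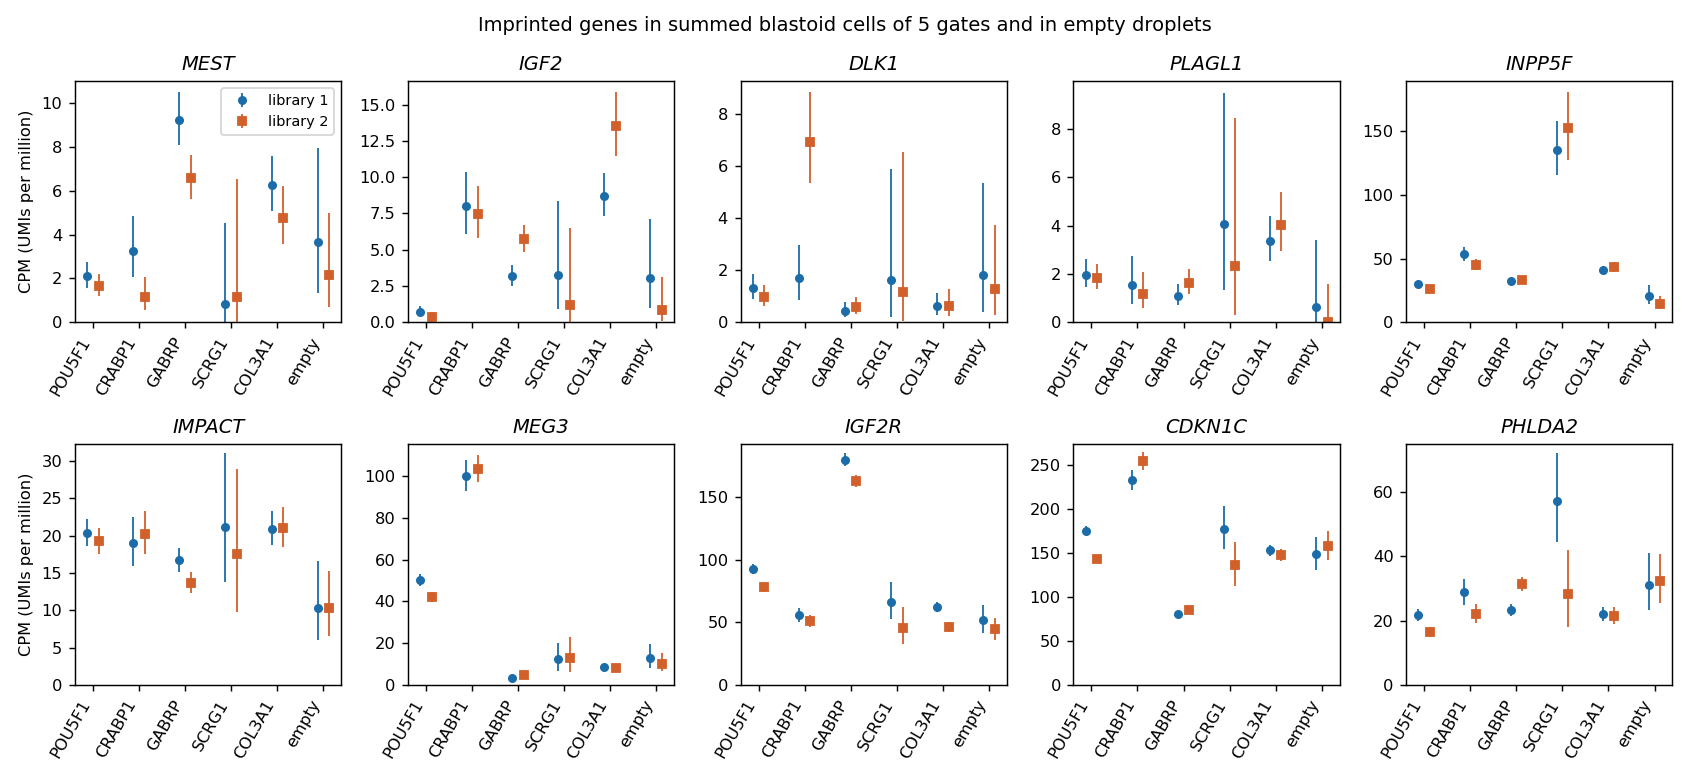
Each panel gives the CPM of 1 gene in the summed cells of the 5 gates and in empty droplets, with circles for library 1, squares for library 2 and bars for the exact 95% Poisson interval. MEG3 and CDKN1C are highest in the CRABP1 gate, IGF2R and MEST in the GABRP gate, INPP5F in the SCRG1 gate and IGF2 in the COL3A1 gate.

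The ratio between the highest and lowest gate means over both libraries was 24.1 for MEG3 and 20.4 for IGF2, the widest of the 10 genes. Their order turned between the libraries, with 28.5 and 12.2 in library 1 and 20.98 and 36.02 in library 2, where the POU5F1 sum of IGF2 is 10 UMIs. In libraries 1 and 2 MEG3 was at 100.2 and 104 CPM in the CRABP1 gate and at 50.2 and 42.01 CPM in the POU5F1 gate. It was at 12.2 and 12.9 CPM in the SCRG1 gate, 8.45 and 8.13 in the COL3A1 gate and 3.51 and 4.93 in the GABRP gate, against 12.8 and 10.2 CPM in empty droplets. The CRABP1 and POU5F1 gates thus stood above the empty-droplet level, the SCRG1 and COL3A1 gates lay within its counting intervals (7.93 to 19.6 and 6.56 to 15.2) and the GABRP gate below them. The fitted log2 difference of MEG3 from the mean of the other 4 gates was 2.94 for CRABP1, 1.61 for POU5F1 and -2.39 for GABRP. With each cell thinned to the same number of UMIs, 47.5% and 50.9% of CRABP1 gate cells and 2.99% and 3.99% of GABRP gate cells had a MEG3 UMI, and without thinning 65.4% and 69.5% against 8.08% and 10.3%, at medians of 25376.5 and 22504 against 26679 and 24292 UMIs. The GABRP gate is the one with the lowest MEG3 sums, and its share of cells does not measure a background.

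DLK1, the paternally expressed neighbour of MEG3, was at a far lower level. It was at 1.68 CPM (0.870 to 2.94) in the CRABP1 gate of library 1 and at 6.92 CPM (5.35 to 8.81) in that of library 2, a difference between libraries outside the counting intervals. In the POU5F1 gate it was at 1.30 and 0.974 CPM, in the GABRP gate at 0.425 and 0.583, in the SCRG1 gate at 1.63 and 1.17 and in the COL3A1 gate at 0.612 and 0.626. Empty droplets were at 1.83 and 1.28 CPM, each from 3 UMIs. Only the CRABP1 sum of library 2 lay clear of the empty-droplet values, and its 66 UMIs came from 35 of 371 cells, with at most 9 in a cell. The SCRG1 sums rest on 2 and 1 UMIs. Over all cells, 890 UMIs of DLK1 were counted against 12453 of MEG3. Of the cells with a DLK1 UMI, 167 of 298 in library 1 and 239 of 435 in library 2 also had a MEG3 UMI, beside 27.9% and 32.2% of all cells. Cells were not thinned for this comparison, and the part of depth in it was not tested. The same comparison differed between gates. In the CRABP1 gate this held for 8 of 10 and 21 of 35 such cells (80% and 60%), beside 65.4% and 69.5% of all its cells. In the POU5F1 gate it held for 18 of 28 and 15 of 22 (64.3% and 68.2%), beside 68.5% and 62.8%, and in the GABRP gate for 1 of 10 and 3 of 14 (10% and 21.4%), beside 8.08% and 10.3%. In the COL3A1 gate it held for 4 of 10 and 1 of 7 (40% and 14.3%), beside 15.1% and 13.5%, and in the SCRG1 gate for 2 of 2 and 1 of 1, beside 22.2% and 25%. The ungated cells, which are most of the cells, stood at 134 of 237 and 196 of 354 (56.5% and 55.4%), beside 26.3% and 30.8%.

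Genes that follow MEG3 on chromosome 7 had nearly the same pattern over the gates. Among 9636 genes with a mean of at least 10 CPM, the 3 most like MEG3 by Pearson's r of log2(CPM + 1) over the 10 sums, which come from 2 libraries and share their depth, were LOC110261648 (r = 0.996), IRS4 (0.986) and LOC102163738 (0.984). LOC110261648 and LOC102163738 are annotated as long noncoding RNAs that begin 160 and 76.3 kb after the end of MEG3 (chromosome 7, 121656253 to 121660495, plus strand). IRS4, an insulin receptor substrate, lies on the X chromosome. LOC110261648 was at 575 and 680.0 CPM in the CRABP1 gate, 278 and 240 in the POU5F1 gate, 81.5 and 65.6 in the SCRG1 gate, 38.8 and 38.4 in the COL3A1 gate and 21.0 and 23.4 in the GABRP gate. The order of the gates was that of MEG3. Empty droplets held 84.2 and 95.6 CPM of it. In pESCs it was at 0.739, 7.97 and 3.71 FPKM, lowest in IVFP25 as MEG3 was, whereas LOC102163738 was lowest in PAP25, at 0.254, 0.653 and 0.186. LOC106504559 and LOC110261647 in the same stretch had r of 0.975 and 0.978 with MEG3, and RTL1, a paternally expressed gene whose interval overlaps that of LOC106504559, had 46 UMIs in all cells.

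**Figure D4:**
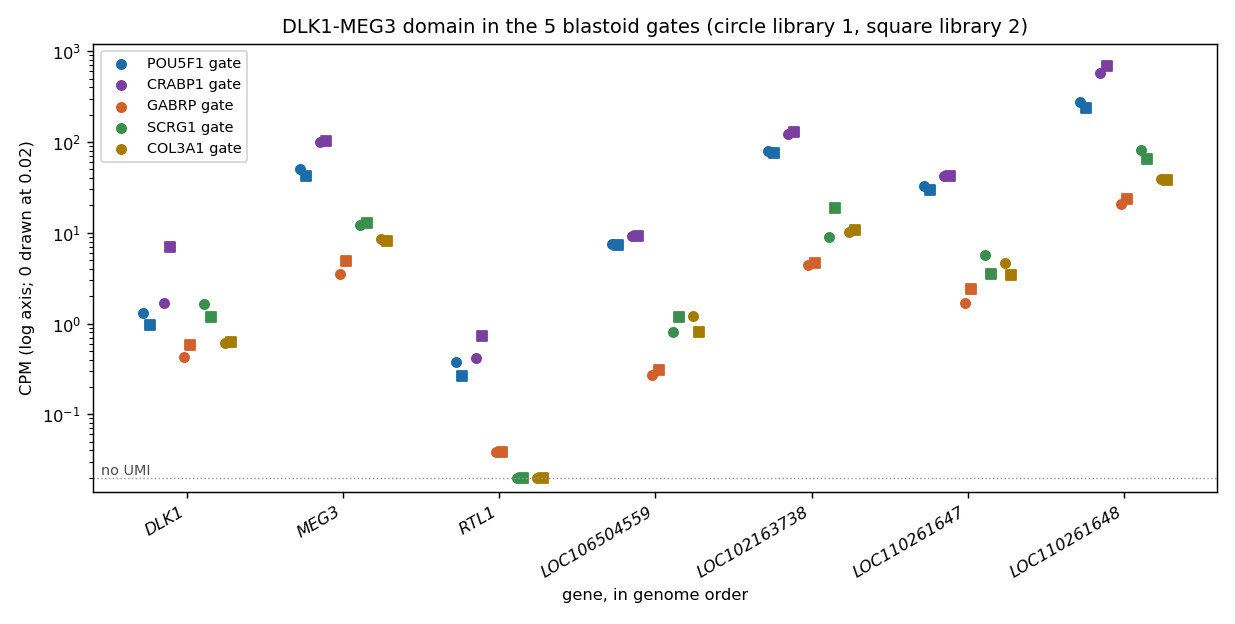
Points give the CPM of 7 genes of chromosome 7, in genome order from DLK1 to LOC110261648, in the 5 gates of library 1 (circles) and library 2 (squares), on a log axis with 0 drawn at 0.02. From MEG3 on, the CRABP1 and POU5F1 gates lie above the other 3 gates for each gene, while DLK1 lies at or below 6.92 CPM throughout.

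IGF2R and IGF2 differed in where they were high. IGF2R was at 180 and 163 CPM in the GABRP gate and 92.3 and 77.9 in the POU5F1 gate, and at 55.6 and 50.9 in the CRABP1 gate, 66.0 and 45.7 in the SCRG1 gate and 62.2 and 46.3 in the COL3A1 gate. The GABRP sums lay above all others, the POU5F1 sums came next, and the last 3 gates overlapped each other and the 51.8 and 44.4 CPM of empty droplets. Among the genes most like it were CRYBG1 (r = 0.988) and BATF3 (0.967). IGF2, its ligand, was at 8.70 and 13.5 CPM in the COL3A1 gate, 7.999 and 7.45 in the CRABP1 gate and 3.17 and 5.71 in the GABRP gate. In the POU5F1 gate it was at 0.714 and 0.375 CPM and in the SCRG1 gate at 3.26 and 1.17, from 4 and 1 UMIs. Empty droplets were at 3.05 and 0.853 CPM, from 5 and 2 UMIs, with intervals up to 7.12 and 3.08. The COL3A1 and CRABP1 sums both lay above these intervals, and the POU5F1 sums lay below all others. The COL3A1 sums were the highest, but in library 1 the counting intervals of COL3A1 (7.33 to 10.3 CPM) and CRABP1 (6.06 to 10.4) overlapped. In the GABRP gate of library 2, 38 of the 147 IGF2 UMIs came from 1 cell. In the COL3A1 gate IGF2 UMIs were found in 92 of 570 and 92 of 465 cells (16.1% and 19.8%), with at most 5 and 8 in a cell, and in the CRABP1 gate in 48 of 240 and 53 of 371 (20.0% and 14.3%). After thinning the shares were 9.30% and 10.97% in COL3A1 and 11.25% and 7.01% in CRABP1, so the order of these gates by share of cells turned between the libraries.

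CDKN1C was at 233 and 254 CPM in the CRABP1 gate, above all other sums, and at 80.1 and 85.0 in the GABRP gate, below all others. The tenth of CRABP1 gate cells with most CDKN1C held 45.0% and 52.6% of its UMIs there, against 34.5% and 34.1% in the POU5F1 gate. After thinning, 69.1% ± 0.560 of CRABP1 gate cells had a CDKN1C UMI, beside 67.3% ± 2.14 in the POU5F1 gate and 72.8% ± 7.01 in the SCRG1 gate (SD, n = 2). The POU5F1, SCRG1 and COL3A1 gates overlapped, at 175 and 143, 178 and 136, and 153 and 148 CPM, as did empty droplets at 148 and 158. The genes most like it were KAZN (r = 0.984), KDM2B (0.981) and PREPL (0.976). PHLDA2 had no gate apart from the rest. It was at 57.0 and 28.1 CPM in the SCRG1 gate, 23.2 and 31.4 in the GABRP gate, 28.8 and 22.03 in the CRABP1 gate, 21.9 and 21.5 in the COL3A1 gate and 21.6 and 16.5 in the POU5F1 gate. Empty droplets held 31.1 and 32.4 CPM of PHLDA2, at or above most gates. The SCRG1 sum of library 1, the highest for PHLDA2, also differed from that of library 2 in TWIST1, a mesenchyme gene, at 304 against 15.2 CPM, and the part of this in the PHLDA2 value was not tested.

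INPP5F was higher in the SCRG1 gate than elsewhere, at 135 and 152 CPM. It was at 53.6 and 45.2 CPM in the CRABP1 gate, 41.1 and 43.0 in the COL3A1 gate, 32.2 and 33.0 in the GABRP gate and 29.6 and 26.2 in the POU5F1 gate, against 20.7 and 14.5 in empty droplets. The SCRG1 gate holds few cells, and its sums rest on 296 UMIs of INPP5F. Over the 2 libraries 95.4% ± 1.40 (SD, n = 2) of its cells had an INPP5F UMI, and 71.2% ± 10.4 after thinning, against 22.03% ± 2.29 of thinned POU5F1 gate cells. The genes most like it were NCAM2 (r = 0.982), RNPC3 (0.980) and NEDD4 (0.976). IMPACT was nearly level, with means of 19.8 ± 0.778 CPM in the POU5F1 gate, 19.6 ± 0.917 in the CRABP1 gate, 19.4 ± 2.57 in the SCRG1 gate and 20.9 ± 0.0834 in the COL3A1 gate (SD, n = 2). Only the GABRP gate, at 15.2 ± 2.13 CPM, lay below these, and empty droplets held 10.3 ± 0.0913.

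MEST and PLAGL1 were low in every gate. MEST was at 9.23 and 6.57 CPM in the GABRP gate and 6.25 and 4.74 in the COL3A1 gate. It was at 2.10 and 1.65 in the POU5F1 gate, 3.23 and 1.15 in the CRABP1 gate and 0.815 and 1.17 in the SCRG1 gate, where each sum is 1 UMI, against 3.66 and 2.13 in empty droplets. The GABRP sums lay above all others. MEST UMIs were found in 18.3% ± 4.00 of GABRP gate cells and 6.13% ± 2.23 of POU5F1 gate cells (SD, n = 2), and in 6.71% ± 1.59 and 1.65% ± 0.194 after thinning. PLAGL1 was at 3.37 and 4.02 CPM in the COL3A1 gate, 4.07 and 2.34 in the SCRG1 gate, 1.97 and 1.84 in the POU5F1 gate, 1.54 and 1.15 in the CRABP1 gate and 1.08 and 1.63 in the GABRP gate. No gate of PLAGL1 lay apart from all others, and empty droplets held 1 UMI in library 1 and 0 in library 2, with intervals up to 3.40 and 1.57 CPM. CDH3 (r = 0.970) was the gene most like MEST, GBE1 (0.972) most like IGF2 and ARHGDIA (0.954) most like PLAGL1. SMIM7 (0.927) was most like DLK1, RAB30 (0.935) most like IMPACT and FGF2 (0.924) most like PHLDA2. Each of these r is the highest among 9636 genes over 10 sums and was not tested. DLK1 was at 6.92 CPM in 1 of the sums and at or below 1.68 in all others.

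The other imprinted genes that the list did not use were tested between gates with edgeR's quasi-likelihood test and Benjamini-Hochberg adjustment over 16939 genes, each gate against the mean of the other 4. Of 26 that could be tested, 15 changed in the POU5F1 gate (7 higher, 8 lower), where 48.9% of all genes did (26.1% higher, 22.8% lower). In the CRABP1 gate 7 changed (6 higher, 1 lower), against 30.8% of all genes (16.6% higher, 14.2% lower). In the GABRP gate 14 changed (9 higher, 5 lower), against 58% (30.3% higher, 27.7% lower). Among the 9 is UBE3A, whose CPM difference from the other gates had opposite signs in the 2 libraries. In the SCRG1 gate 4 changed (1 higher, 3 lower), against 18.8% (8.5% higher, 10.3% lower), and in the COL3A1 gate 12 (8 higher, 4 lower), against 37% (22.4% higher, 14.6% lower). Without the SCRG1 gate in the fit, an alternative chosen after seeing the data, 19 of 27 changed in the COL3A1 gate, beside 46.9% of all genes in that fit. The median log2 difference of the 26 genes was between -0.57 in the SCRG1 gate and 0.30 in the GABRP gate, beside -0.08 and 0.01 over all genes. The SCRG1 sums held 1227070 and 854187 UMIs, the fewest of the gates, and the part of depth in its count was not tested.

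The called genes named here include DIO3, ASCL2 and SLC22A18, from clusters that also hold members, and SFMBT2 and TFPI2. DIO3, a thyroid hormone deiodinase at the far end of the domain of DLK1 and MEG3, was higher in the CRABP1 gate (log2 difference 5.28, adjusted p = 1.4e-05) and in the COL3A1 gate (3.55, adjusted p = 1.8e-03). Its CPM was 5.47 and 6.61 in the CRABP1 gate and 1.78 and 2.32 in the COL3A1 gate, with 0 in both SCRG1 sums and 1.83 and 1.71 in empty droplets, so the size of the fitted difference depends on how zeros are treated. SFMBT2, a Polycomb-group protein, was higher in the CRABP1 gate (2.46, adjusted p = 4.0e-07) and lower in the GABRP gate (-2.63, adjusted p = 1.7e-06). ASCL2 is a basic helix-loop-helix factor near IGF2 and CDKN1C on the map of this cluster in mammals. It was higher in the POU5F1 gate (2.14, adjusted p = 2.5e-04), at 3.19 and 3.11 CPM. Its SCRG1 sums were at 0.815 and 0 CPM, so the size of its fitted difference depends on how zeros are treated. TFPI2, a protease inhibitor, was higher in the COL3A1 gate (3.06, adjusted p = 7.1e-09) and lower in the POU5F1 gate (-2.18, adjusted p = 1.6e-04). SLC22A18, a transporter of the CDKN1C and PHLDA2 cluster, was higher in the GABRP gate (1.63, adjusted p = 5.8e-04). Its CPM there was 2.47 and 2.76, against 4.27 and 1.28 in empty droplets, so the sum of library 1 lay below the empty-droplet level. The SCRG1 sums of SLC22A18 were also at 0.815 and 0 CPM, with the same limit on its fitted difference.

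The 8 genes at least 10 times as high in IVFP25 were nearly absent from the blastoid counts. Over all cells 31 UMIs of SNRPN, 24 of PEG3, 67 of NNAT, 16 of SGCE, 8 of NAP1L5, 3 of PEG10, 1 of NDN and 0 of MAGEL2 were counted, none of which passed the filter on low counts. DIRAS3, a small GTPase of the same class at 4.12, 0.0397 and 1.57 FPKM in pESCs, had 3115 UMIs, and was higher in the GABRP gate (log2 difference 1.77, adjusted p = 2.8e-05) and the COL3A1 gate (1.39, adjusted p = 1.0e-03) and lower in the POU5F1 gate (-1.42, adjusted p = 6.8e-03). Its empty-droplet levels were 6.71 and 5.97 CPM, beside 6.53 and 7.93 in the GABRP gate and 4.90 and 8.22 in the COL3A1 gate. The sums of library 1 in both gates thus lay below the empty-droplet level. Ungated cells, which are not part of the contrast, were at 5.90 and 7.32 CPM. IGFBP5, which is no imprinted gene, had no UMI, like MAGEL2, although its FPKM was 2.55 to 6.76 in pESCs. Whether such genes are absent from blastoids or missed by the single-cell counting was not tested. These counts do not by themselves show a level. Of the members, DLK1 and PLAGL1 had the fewest UMIs over all cells, 890 and 888, followed by IGF2 with 1368 and MEST with 1799, and CDKN1C the most, 74359.

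Genes of the IGF pathway and of imprint maintenance were read from lists beside the members. In the POU5F1 gate 6 of 13 IGF pathway genes changed (2 higher, 4 lower), beside 48.9% of all genes, in the CRABP1 gate 6 (4 higher, 2 lower), beside 30.8%, and in the COL3A1 gate 7 (5 higher, 2 lower), beside 37%. In the GABRP gate 8 changed (5 higher, 3 lower), beside 58%, and in the SCRG1 gate 6 (2 higher, 4 lower), beside 18.8%. Among the 5 higher in the GABRP gate is IRS1, whose CPM difference had opposite signs in the 2 libraries. IGFBP7, which binds insulin-like growth factors weakly, was higher in the COL3A1 gate (log2 difference 4.04, adjusted p = 1.2e-11), where the IGF2 sums were highest, as were IGF1 (3.70, adjusted p = 2.2e-03) and IGFBP4 (3.29, adjusted p = 1.6e-04), though IGF1 was at 1.78 and 0.983 CPM there and IGFBP4 at 1.84 and 1.16. IGF1 had 0 UMIs in the SCRG1 gate and IGFBP4 had 1 there and 1 in the CRABP1 gate, so the sizes of these fitted differences depend on how zeros are treated. In the GABRP gate, where IGF2R was highest, IGFBP3 (4.91, adjusted p = 9.1e-08) and IGFBP6 (2.32, adjusted p = 1.6e-08) were higher and IGFBP2 (-1.16, adjusted p = 8.7e-08) lower. IGFBP3 had no UMI in the SCRG1 gate, so its fitted difference depends on how zeros are treated. Of 6 imprint maintenance genes, 5 were lower in the GABRP gate and 0 higher, where 27.7% of all genes were lower and 30.3% higher, among them UHRF1 (-1.85, adjusted p = 2.7e-09) and DNMT1 (-1.04, adjusted p = 2.4e-07), which copy methylation at replication, while DPPA3 did not pass (-1.33, adjusted p = 0.14). In the POU5F1 gate, where 26.1% of all genes were higher, 3 were higher and 0 lower, DPPA3 (5.27, adjusted p = 2.4e-08), an oocyte and germ cell protein that guards imprints in the zygote, TRIM28 (0.42, adjusted p = 1.9e-04) and CTCF (0.22, adjusted p = 7.5e-03). DPPA3 had 2 UMIs in the CRABP1 gate and 1 in the SCRG1 gate, so the size of its fitted difference depends on how zeros are treated. For the other gates the counts were 1 higher and 1 lower in CRABP1 (16.6% and 14.2% of all genes), 3 higher and 0 lower in SCRG1 (8.5% and 10.3%), and 2 higher and 0 lower in COL3A1 (22.4% and 14.6%).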

How the data were processed

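Members and lists were chosen with earlier results of these data known. For blastoids, the authors counted UMIs per gene with Cell Ranger 7.1.0 on susScr11 (Sscrofa11.1), and the deposited count matrices hold every barcode, unfiltered. For pESCs, the authors trimmed reads with Trim Galore 0.6.4, mapped them with HISAT2 2.2.1 and computed FPKM with StringTie 2.2.1, deposited per RefSeq transcript without read counts. The library kit and sequencer differ between paper and labels.

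Barcodes with at least 11223 (library 1) or 9805 (library 2) UMIs were cells. A cell entered a gate with at least 5 UMIs of the gate's gene and a CPM at least 3 times that of all cells of its library. Cells of 2 gates (51 and 52) were left out, except that cells in both the SCRG1 and CRABP1 gates counted as SCRG1. Doublets were not called. Thinning drew 9805 UMIs per cell. Counts summed per gate and library, after filterByExpr, were fitted with TMM and the quasi-likelihood test of edgeR 4.0.16 in R 4.3.3, each gate against the mean of the other 4, with all gates in 1 fit and adjusted p below 0.05 as the threshold. Members entered the fit and their p-values are not used. Genes that define a gate differ by construction. On simulated counts for the POU5F1 comparison, the test recovered 199 of 200 genes changed by a fold of 2 and falsely called 9 of 16300 others. The changed genes were drawn only from those with a higher mean CPM. All other genes were equal across gates, and every gene had the same dispersion, 0.00548. These rates do not carry over to genes at low CPM or to data in which many genes differ between gates. Each library gave all gates, so the library pairs the sums, and deviations of library 1 from library 2 correlated between gates at 0.026 to 0.173 over 16939 genes. FPKM were added up per gene symbol, with no test. Named genes were all members, PEG3, PEG10, SNRPN and GRB10, the 4 called other imprinted genes with the largest change in a gate and the same sign in both libraries (a selection is described), the 6 other imprinted genes highest in pESCs, the 3 list genes that changed most, and the 3 genes most like a member. NNAT, NDN, SGCE, NAP1L5, MAGEL2 and IGFBP5 were named after their values were seen. H19 was not matched in the files. Promoter windows and coordinates come from the RefSeq annotation of Sscrofa11.1, which held 77689 of 81391 transcripts. Alternatives were other scaling, test, filter, gates and cell thresholds. Some items that the rule for named genes would include are not reported here.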

Additional observations from a re-analysis of the deposited data

How the results depend on the processing

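The number of genes called in each gate stayed within 1.5 times its value in the report under each alternative tried (DESeq2 size factors, the DESeq2 test, no filter on low counts, gates at 2 or 6 times, cells of 2 gates kept, a mitochondrial filter, the cells with most UMIs left out, and the library as a replicate block). The count of other imprinted genes did so too, except that, in a fit chosen after seeing the data, 19 of 27 changed in the COL3A1 gate without the SCRG1 gate, in place of 12 of 26, while the share of all genes called there went from 37% to 46.9%. With the library as a replicate block, 15, 7, 14, 4 and 12 other imprinted genes changed in the POU5F1, CRABP1, GABRP, SCRG1 and COL3A1 gates, the counts of the fit without it, and 8861, 5801, 10258, 3397 and 6764 of all genes. With 1 blastoid library left out no test was possible, since 1 sum per gate remained. With gates at 6 times, the log2(CPM + 1) difference of PLAGL1 in the POU5F1 gate turned from -0.14 to 0.0403 and that of IGF2R from 0.23 to -0.0455, and the cause was not tested. Ranking only genes with at least 1 FPKM, which lowers a percentile by construction, moved its mean for 9 of 10 members in pESCs. Thinning, which can only lower the share of cells with a UMI, moved that share in 46 of 50 results. Neither count speaks to the order of genes or gates. The count of 8 paternally expressed genes higher in IVFP25 was 8 without PA_4P7, 10 without PAP25, 8 with a limit of 5 times and 8 with a minimum of 0.5 FPKM, all alternatives chosen after seeing the data. Depth limits the SCRG1 gate most, where 1 to 5 UMIs per sum carry MEST, IGF2, DLK1 and PLAGL1, and the bulk depth is unknown.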
